A study of Mus musculus with 12 samples.

Results

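Ribosomal RNA is made in the nucleolus by RNA polymerase I (pol I), which is brought to the rDNA promoter by UBTF, the TIF-IA factor encoded by *Rrn3* and the SL1 complex of TBP and TAF1 proteins. The precursor is then modified by small nucleolar ribonucleoproteins (snoRNPs), cut and folded within the small subunit processome, and passed through separate maturation lines for the small and large subunits. In liver this programme is known to respond to nutrients, and MAF1 is known mainly as a repressor of the neighbouring polymerase, pol III, which makes 5S rRNA and tRNAs.

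The genes described here were 46 protein-coding genes of this programme, chosen by symbol, and all 46 were found among the 13304 genes measured. They fell into 9 roles: pol I subunits, pol I initiation factors, nucleolar scaffold and chaperone proteins, box C/D and box H/ACA snoRNP proteins, the small subunit processome, late small subunit maturation, large subunit assembly and rDNA silencing. The question was whether their mRNA levels differed between livers with and without MAF1. Total RNA was sequenced from liver homogenates of 7 wild-type (WT) mice and 5 mice carrying a *Maf1* knockout (Maf1-/-, shown as Maf1 KO in the plots), 1 mouse per library. All mice were of the C57Bl/6J strain, 12 to 14 weeks old, on a chow diet, and had been without food overnight and then given food again for 4 h; livers were perfused with phosphate buffered saline, and libraries were made with a stranded kit that depletes ribosomal and globin RNA, so that rRNA itself was not measured. The knockout is of the whole animal, and the homogenate holds RNA of every liver cell type.

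Values are log2 of reads relative to the scaled library size, with 1 read worth the same for every gene in a library. Between 34709661 and 55787438 reads fell in the listed genes per library, and a member gene held from 18 to 4990 reads per library. *Maf1* itself had a mean of 3.36 ± 0.35 (SD, n = 7) in WT and −1.43 ± 1.27 (SD, n = 5) in Maf1-/- livers, from 254 to 534 reads against 5 to 52 reads, and the groups did not overlap. One library stood apart from its group: in WT 2 the values lay outside the range of the other 6 WT libraries for 36 of the members, below it for 17 (37.0%, against 36.0% of all genes) and above it for 19 (41.3%, against 29.7%). The summed level of 8 hepatocyte markers was 16.60 to 16.98 in WT and 16.72 to 17.11 in Maf1-/- libraries. Of the 8, *Cps1* was at an unadjusted p under 0.05 (23.1% of all genes were). The sum of 8 Kupffer cell markers was 8.07 to 8.89 against 8.14 to 8.68. That of 8 stellate cell markers was 9.02 to 9.47 against 9.25 to 9.88. Of these, 3 were at an unadjusted p under 0.05 (23.1% of all genes were). That of 8 dividing cell markers was 4.78 to 5.06 against 4.75 to 5.13. The sum of 8 endothelial cell markers was 8.73 to 8.92 against 8.77 to 8.999, that of 6 cholangiocyte markers 5.34 to 6.58 against 4.86 to 6.52, that of 5 red blood cell markers 6.06 to 7.13 against 5.96 to 6.65, and that of 4 lymphocyte markers 4.51 to 5.43 against 5.11 to 6.07. The median log2 fold changes (Maf1-/- over WT) were largest in size for the red blood cell (−0.98) and cholangiocyte (−0.50) markers. In each of these lists 1 marker was at an unadjusted p under 0.05 (23.1% of all genes were). The red blood cell markers include globin genes, whose RNA the library kit depletes. The share of this depletion in their values was not tested. No marker passed the thresholds used below, and the part of cell composition in the results was not tested. In such bulk samples fewer cells of a type and less RNA per cell cannot be told apart.

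A gene was called where the Benjamini-Hochberg adjusted p of limma, a linear model with variances moderated across all genes, was under 0.01 and the log2 fold change above 0.5 in size. No member of the 46 was called, against 2 of 13304 genes (0.015%), one of them *Maf1*. The smallest adjusted p among the members was 0.19. At an unadjusted p under 0.05, which is a description and not a call, 14 members were higher in Maf1-/- liver (9.9% of all genes were) and 2 were lower (13.2% of all genes), 16 in all where the share over all genes was 23.1%. The 14 were *Rrn3*, *Taf1a*, *Taf1b*, *Taf1d*, *Nop58*, *Dkc1*, *Wdr43*, *Wdr75*, *Utp6*, *Utp20*, *Nop14*, *Ltv1*, *Gnl2* and *Gnl3*, and the 2 were *Taf1c* and *Nob1*. The median log2 fold change (Maf1-/- over WT) of the members was 0.04, beside −0.02 over all genes, with 27 above 0 (47.1% of all genes were) and 19 below. No member had a log2 fold change above 0.5, and 5 lay below −0.5: *Taf1c*, *Rrs1*, *Fbl*, *Nob1* and *Rrp12*. No member had groups that did not overlap, which 0.586% of all genes had.

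**Figure D1:**
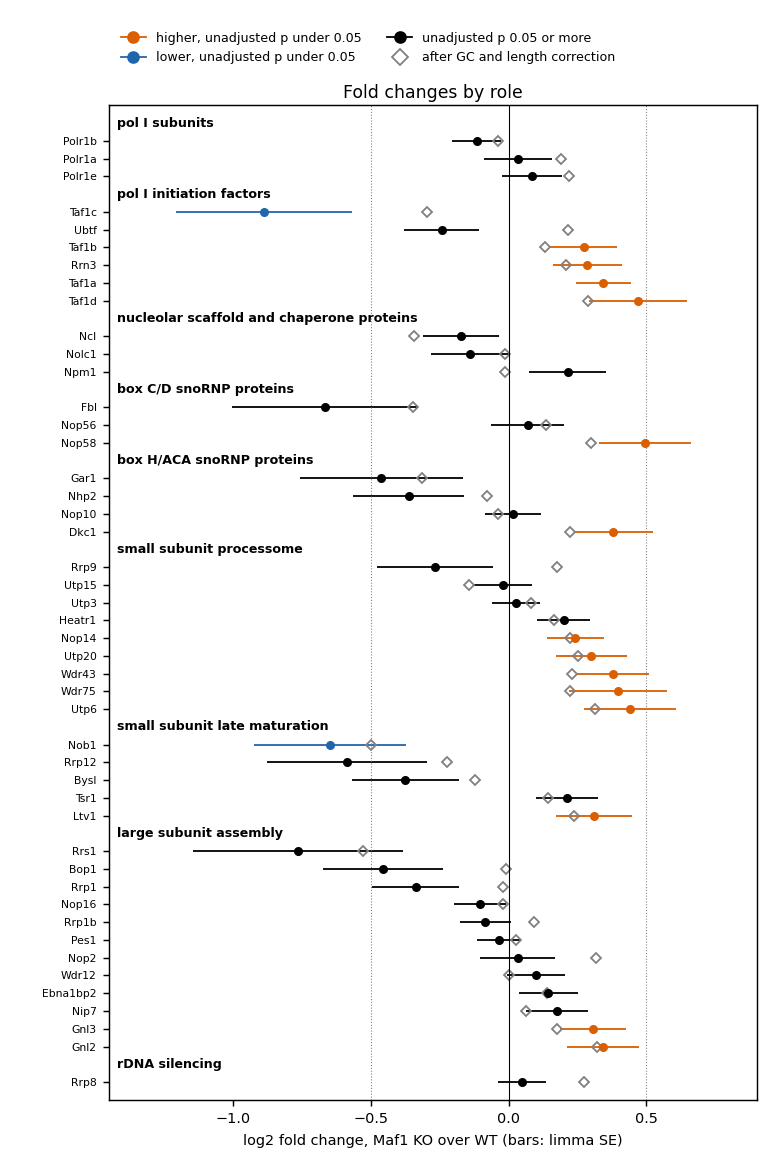
Log2 fold change, Maf1 KO over WT, of each of the 46 genes by role (filled circles, bars are the limma SE), with the GC and length corrected value as open diamonds and dotted lines at −0.5 and 0.5. The processome genes lie mostly to the right of 0, while *Taf1c*, *Rrs1*, *Fbl*, *Nob1* and *Rrp12* lie to the left of −0.5 with wide bars, and the diamonds of these 5 lie nearer to 0.

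The fold changes ran with the base composition of the transcripts. Over the 45 members with a known exonic GC content Spearman's rho between GC content and log2 fold change was −0.81, beside −0.69 over all 12482 genes with a value; these points share the same 12 libraries, and rho is given as a description. Of the 22 members with a GC content below the members' median (38.6% to 48.5%), 20 had a log2 fold change above 0, 13 of them at an unadjusted p under 0.05, and their median was 0.28. Of the 23 at or above it (49.99% to 60.9%), 17 were below 0, 2 of them at an unadjusted p under 0.05, and their median was −0.24. Over all genes, of any GC content, 47.1% were above 0, and 9.9% were higher and 13.2% lower at that p. All genes split the same way. Binned by GC content, their median was 0.28 in the lowest bin (median GC 38.7%) and −0.61 in the highest (60.6%). *Taf1a* had no GC value. Libraries themselves differed in this respect: over all genes the log2 value went up by 0.14 to 0.35 per 10 points of GC content, relative to the gene means, in 6 WT libraries, and by −0.57 in WT 2, while the slopes of the Maf1-/- libraries ran from −0.54 to 0.08. What sets these slopes was not tested, and the genotype and the slope cannot be told apart for the 11 libraries other than WT 2. A loess trend on both GC content and exon length was then subtracted library by library. After this GC and length correction rho over the members was −0.36, the 2 medians were 0.19 and −0.01, and the median of all 45 was 0.13, beside 0.02 over all genes.

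**Figure D2:**
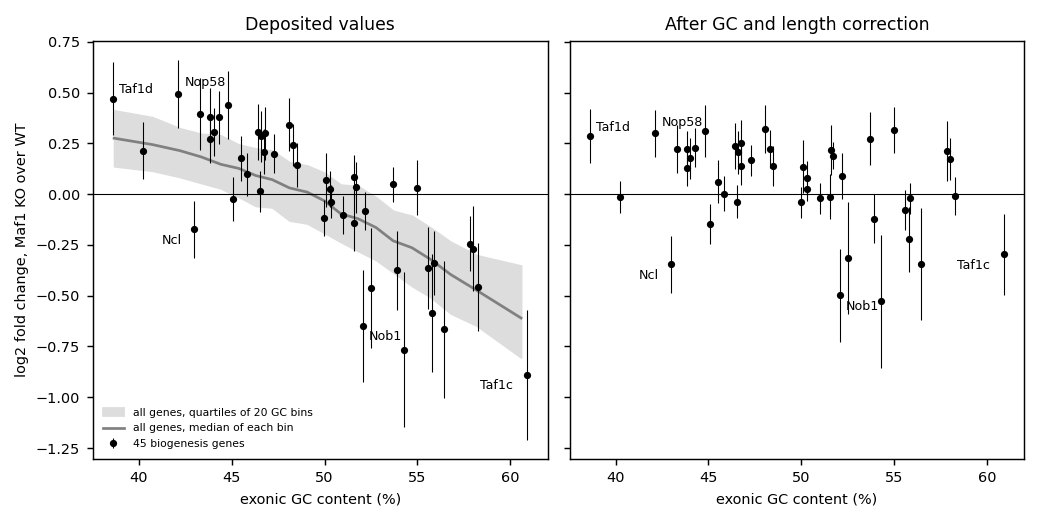
Log2 fold change against exonic GC content for the 45 biogenesis genes with a GC value (points, bars are the limma SE), in the deposited values and after the GC and length correction; the grey line and band give the median and quartiles of all genes in 20 GC bins. The members follow the all-gene line downwards on the left, with *Ncl*, *Nob1* and *Rrs1* among those furthest below it, and the slope is smaller on the right.

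After that correction no member was called (0.00801% of all genes were), 10 were higher at an unadjusted p under 0.05 (8.68% of all genes were) and 2 were lower (9.17% of all genes). The 10 were *Polr1a*, *Taf1d*, *Nop58*, *Dkc1*, *Wdr43*, *Utp6*, *Utp20*, *Nop14*, *Nop2* and *Gnl2*, and the 2 were *Ncl* and *Nob1*. These counts depended on how each library was centred. With each library's mean trend put back, only *Utp6*, *Nop2* and *Gnl2* were higher (3 members, 4.49% of all genes) and *Ncl* and *Nob1* lower (13.9% of all genes), the median of the members was 0.05 and that of all genes −0.07. Both forms were computed before the first was kept.

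**Figure D3:**
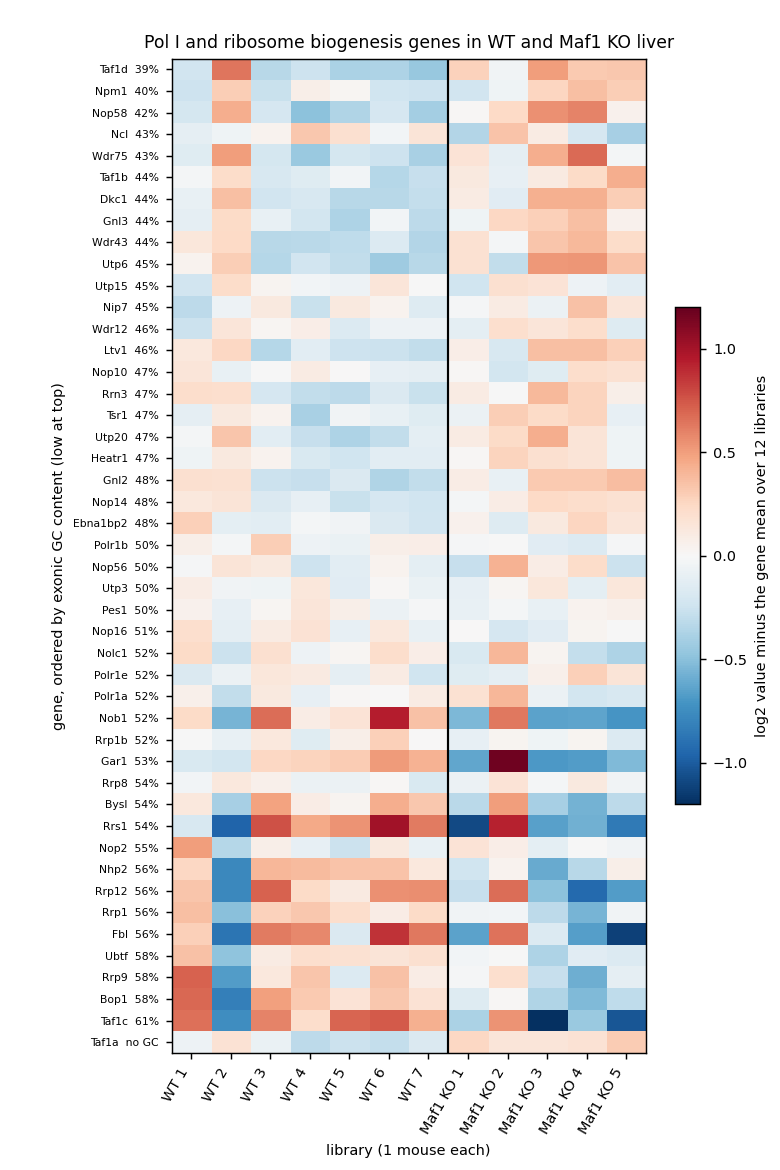
Log2 value minus the gene's mean over the 12 libraries, for the 46 genes ordered by exonic GC content (rows) in each library (columns, 1 mouse each; the line separates WT from Maf1 KO). WT 2 shows the colours of the Maf1 KO libraries, high for the low-GC genes at the top and low for the high-GC genes, and Maf1 KO 2 is high for *Nob1*, *Gar1*, *Rrs1*, *Rrp12* and *Fbl*.

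The promoters of these genes were read for the E-box of MYC and its partners, a known regulator of ribosome biogenesis. The 6 letters CACGTG read the same on both strands and were searched in RefSeq promoters of 300 bases, 250 before and 50 after the start (build GRCm38.p6). Of 39 members with an entry 7 held it (17.95%), beside 11.68% of 9724 measured genes and 8.093% of all 27025 entries; *Npm1*, *Fbl*, *Utp6*, *Rrp12*, *Bop1*, *Rrs1* and *Gnl2* had none to read. One site of each of the 7 genes is shown, with the motif in capitals, because it is what these members share in sequence; a match is a description and not a shown binding site. *Rrn3* holds a second site, which is not shown. Each runs 5′ to 3′ on the gene's strand, and sites after the start are cut at the motif.
Rrn3 (chr16:13780467-13780506, + strand): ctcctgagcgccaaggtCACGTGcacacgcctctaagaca
Wdr43 (chr17:71616215-71616237, + strand): gcctgcgcccgggcgaaCACGTG
Utp20 (chr10:88826772-88826794, - strand): cccagcggcactaactaCACGTG
Tsr1 (chr11:74898087-74898109, + strand): agagttcacttggtgcaCACGTG
Ltv1 (chr10:13193104-13193126, - strand): ccctagccctgtggaccCACGTG
Pes1 (chr11:3963960-3963982, + strand): cagggccctaggcagggCACGTG
Nop2 (chr6:125131806-125131845, + strand): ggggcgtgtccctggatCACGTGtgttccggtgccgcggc

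Of these 7 genes 6 had a log2 fold change above 0 (47.1% of all genes had) and 4 were higher at an unadjusted p under 0.05 (9.9% of all genes). Their median log2 fold change was 0.28 and their median GC content 46.8%. All genes in the GC bins with medians of 46.3% and 47.2% had median log2 fold changes of 0.09 and 0.07. The 32 without the motif had 18 above 0, and 8 higher and 2 lower at an unadjusted p under 0.05 (9.9% and 13.2% of all genes). Their median was 0.03 and their median GC content 50.1%. After the GC and length correction the medians were 0.23 and 0.09. Of the genes for MYC and its partners, *Myc* (−0.55) and *Mnt* (−0.99) were lower at an unadjusted p under 0.05 (13.2% of all genes were). *Mxi1* (−0.20) and *Max* (0.19) did not reach that p. After the correction *Myc* was at −0.28 and *Mnt* at −0.44. Whether MYC has a part in these fold changes was not tested.

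Among the 3 pol I subunits no difference in the deposited values exceeded the spread between livers. *Polr1a*, encoding the largest subunit (chr6:71909053-71984935, GRCm38), had WT values of 4.77, 5.08 and 5.18 (lowest, median and highest, as for each gene below) and Maf1-/- values of 5.25, 5.46, 5.00, 4.84 and 4.87. Maf1 KO 1 and 2 lay above every WT library and the others within their range. Its log2 fold change was 0.03 (SE 0.12, adjusted p = 0.87), −0.013 without WT 2 and 0.19 after the GC and length correction (SE 0.07, adjusted p = 0.23), where its unadjusted p was the smallest of the members. *Polr1b*, the second largest subunit, was at 4.45, 4.60 and 4.82 in WT and at 4.51, 4.52, 4.39, 4.36 and 4.52 in Maf1-/- livers, with Maf1 KO 3 and 4 below all WT libraries. This gave a log2 difference of −0.12 (SE 0.09, adjusted p = 0.39), and −0.04 after the correction. *Polr1e*, a subunit that helps initiation and elongation, was at 2.61, 2.78 and 2.99 against 2.70, 2.74, 2.91, 3.13 and 3.00, with Maf1 KO 4 and 5 just above the WT range and a log2 fold change of 0.08, SE 0.11, or 0.22, SE 0.12, after the correction.

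The 6 initiation factors did not share a direction. *Taf1a*, a subunit of SL1, was 1.27-fold higher in Maf1-/- liver: WT values were 2.56, 2.69 and 3.04 and Maf1-/- values 3.12, 3.01, 3.01, 3.04 and 3.17. The WT maximum was WT 2, and every Maf1-/- library lay above the other 6 WT libraries, whose highest value was 2.81. In log2 this was 0.34 (SE 0.10, adjusted p = 0.19), the smallest p of the members. *Taf1d*, another SL1 subunit and a host of snoRNA genes, was at 2.76, 2.88 and 3.86 in WT and at 3.50, 3.17, 3.71, 3.53 and 3.54 in Maf1-/- livers. All 5 lay above the 6 WT libraries other than WT 2 and below WT 2. Its difference was 1.39-fold (log2 0.47, SE 0.18, adjusted p = 0.20), 0.61 without WT 2 (adjusted p = 0.0065) and 0.29 after the GC and length correction (adjusted p = 0.28).

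*Taf1c*, the third SL1 subunit described, went the other way and had the largest difference in size of the 46, 1.85-fold lower (log2 −0.89, SE 0.32, adjusted p = 0.19). WT values were −0.47, 0.87 and 1.01 and Maf1-/- values −0.11, 0.81, −1.01, −0.18 and −0.75. The WT minimum was again WT 2, the other 6 began at 0.48, and only Maf1 KO 2 reached them. *Taf1c* had the fewest reads, 29 to 97 in WT and 18 to 67 in Maf1-/- libraries, the highest GC content (60.9%) and, per kb of exon, the lowest WT level of the members with a length (−1.12, where the members' median was 2.76). After the GC and length correction its log2 fold change was −0.30. Of the other initiation factors, *Rrn3* (0.28) and *Taf1b* (0.27) were higher at an unadjusted p under 0.05, and *Ubtf* had a log2 fold change of −0.24 that was 0.21 after the correction.

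**Figure D4:**
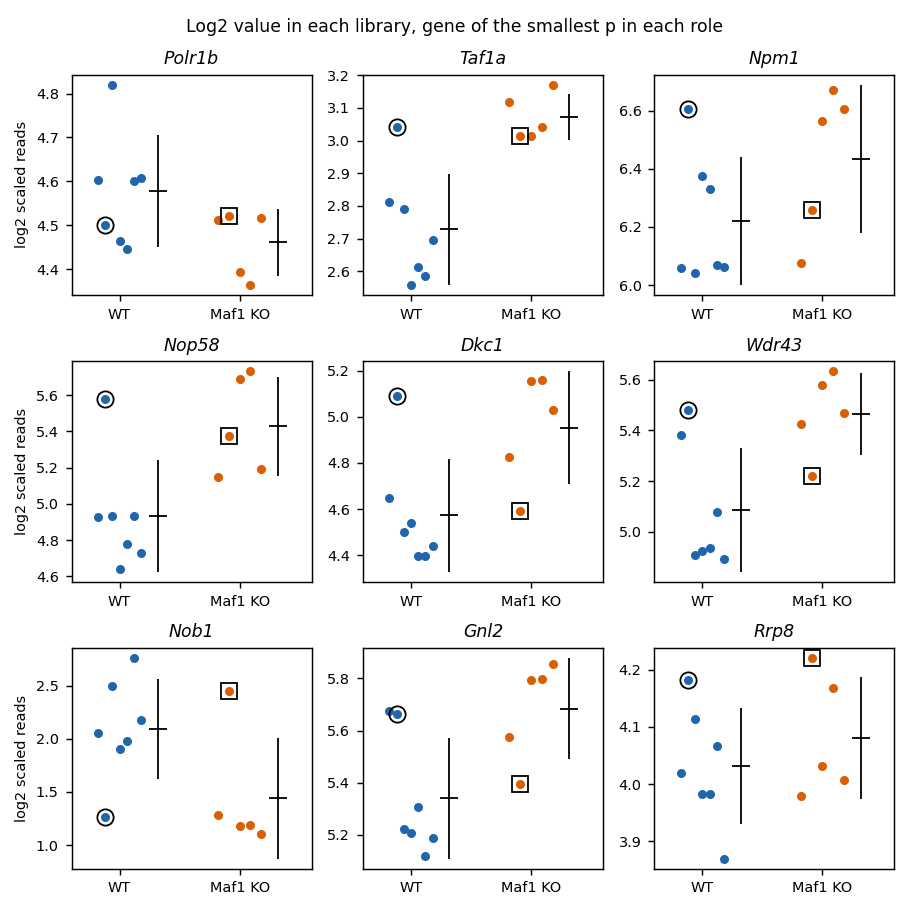
Log2 value in each library for the gene with the smallest p in each of the 9 roles (WT n = 7, Maf1 KO n = 5; the cross and bar beside each group are the mean and SD; vertical scales differ). The circle marks WT 2 and the square Maf1 KO 2. WT 2 lies within the range of the Maf1 KO points for all 9 genes, and other WT points do so for some of them.

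None of the 3 nucleolar scaffold and chaperone genes differed at an unadjusted p under 0.05. *Ncl*, encoding nucleolin, was at 6.45, 6.60 and 6.88 in WT and at 6.20, 6.90, 6.65, 6.36 and 6.16 in Maf1-/- livers. Maf1 KO 1, 4 and 5 lay below every WT library and Maf1 KO 2 just above them. The log2 fold change was −0.17 (SE 0.14, adjusted p = 0.42) and, after the GC and length correction, −0.35 (SE 0.14); its GC content was 43.0%. *Npm1*, encoding the nucleolar chaperone nucleophosmin, was at 6.04, 6.07 and 6.61 against 6.08, 6.26, 6.57, 6.67 and 6.61, with WT 2 at the level of Maf1 KO 3, 4 and 5; its log2 fold change of 0.22 (SE 0.14) became −0.014 after the correction. Reads shared with processed pseudogenes of *Npm1* could be lost or split in counting. *Nolc1*, encoding a nucleolar phosphoprotein that binds snoRNPs, was at 4.59, 4.93 and 5.08 against 4.67, 5.25, 4.88, 4.56 and 4.48, a log2 fold change of −0.14 (SE 0.14), or −0.01 after the correction, with overlapping groups.

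The box C/D proteins, which carry out 2′-O-methylation of rRNA, gave 3 different pictures. *Fbl*, the methyltransferase fibrillarin, was 1.59-fold lower: WT values were 0.24, 1.70 and 1.99 and Maf1-/- values 0.48, 1.77, 0.96, 0.46 and −0.0030. WT 2 held the WT minimum and Maf1 KO 2 the Maf1-/- maximum, and the groups overlapped. On the log2 scale the difference was −0.67 (SE 0.34, adjusted p = 0.24), from 48 to 161 reads in WT and 34 to 131 in Maf1-/- libraries, and −0.35 after the GC and length correction. *Nop58*, a core protein of the same particle, was 1.41-fold higher, with 4.64, 4.93 and 5.58 in WT and 5.15, 5.38, 5.69, 5.73 and 5.19 in Maf1-/- livers. Every Maf1-/- library lay above the 6 WT libraries other than WT 2, whose highest value was 4.94. On the log2 scale this was 0.50 (SE 0.17, adjusted p = 0.19), 0.60 without WT 2 (adjusted p = 0.0087) and 0.30 after the GC and length correction (adjusted p = 0.24). *Nop56*, its partner, was at 4.22, 4.45 and 4.62 against 4.19, 4.89, 4.55, 4.69 and 4.21, a log2 fold change of 0.07 (SE 0.13) that was −0.03 without Maf1 KO 2 and 0.13 after the correction.

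In the box H/ACA particle, which makes pseudouridine, the catalytic subunit and 2 of its partners lay on opposite sides of 0. *Dkc1*, the pseudouridine synthase dyskerin, was at 4.39, 4.50 and 5.09 in WT and at 4.83, 4.59, 5.16, 5.16 and 5.03 in Maf1-/- livers, 1.30-fold higher (log2 0.38, SE 0.14, adjusted p = 0.20; 0.22 after the GC and length correction). Of the Maf1-/- libraries only Maf1 KO 2 lay within the range of the 6 WT libraries other than WT 2. *Nhp2* was at 3.09, 4.20 and 4.26 against 3.63, 3.91, 3.26, 3.53 and 3.93. Here WT 2 lay below every Maf1-/- library and the other 6 WT libraries, from 3.99, above all of them. The log2 fold change was −0.36 (SE 0.20, adjusted p = 0.27), −0.52 without WT 2 (adjusted p = 0.013) and −0.08 after the GC and length correction (adjusted p = 0.67). *Gar1* was at 0.88, 1.36 and 1.61 in WT and at 0.48, 2.26, 0.41, 0.43 and 0.58 in Maf1-/- livers: Maf1 KO 2 lay above every WT library and the other 4 below all of them. Its log2 fold change of −0.46 (SE 0.30) was −0.82 without Maf1 KO 2 and −0.31 after the correction. *Nop10* had a log2 fold change of 0.01 and the highest WT level per kb of exon (5.24).

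Among the 9 processome genes 7 had a log2 fold change above 0, 5 of them at an unadjusted p under 0.05 (9.9% of all genes), and the median was 0.24, or 0.22 after the GC and length correction. *Wdr43*, which links the processome to pol I transcription, was at 4.89, 4.94 and 5.48 in WT and at 5.43, 5.22, 5.58, 5.63 and 5.47 in Maf1-/- livers. WT 1 and WT 2 lay among the Maf1-/- values and the other WT libraries below them. It was 1.30-fold higher (log2 0.38, SE 0.13, adjusted p = 0.19), and 0.23 in log2 after the correction. *Utp6*, a component of the UTP-B subcomplex, was at 5.55, 5.68 and 6.27 against 6.16, 5.68, 6.49, 6.50 and 6.32, and 4 of the 5 Maf1-/- libraries exceeded the 6 WT libraries other than WT 2. Its log2 fold change was 0.44 (SE 0.17, adjusted p = 0.20), and 0.58 without Maf1 KO 2. *Nop14*, needed for 18S rRNA processing in yeast, was at 4.11, 4.21 and 4.54 against 4.36, 4.47, 4.62, 4.59 and 4.57; Maf1 KO 3, 4 and 5 lay above every WT library, and the log2 fold change was 0.24 (SE 0.10, adjusted p = 0.21). Of the rest *Wdr75* (0.40) and *Utp20* (0.30) were higher at an unadjusted p under 0.05, *Heatr1* (0.20), *Utp3* (0.03), *Utp15* (−0.02) and *Rrp9* (−0.27, or 0.17 after the correction) were not.

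The late small subunit factors were split. *Nob1*, the endonuclease that makes the 3′ end of 18S rRNA, was 1.57-fold lower, with WT values of 1.27, 2.05 and 2.76 and Maf1-/- values of 1.28, 2.45, 1.18, 1.18 and 1.11. Maf1 KO 2 lay among the WT libraries and WT 2 among the others, which were all below the 6 remaining WT libraries (from 1.91). The log2 fold change was −0.65 (SE 0.28, adjusted p = 0.20), −0.50 (SE 0.23) after the GC and length correction and −0.90 without Maf1 KO 2. *Rrp12*, an export factor of pre-ribosomes in yeast, had the same arrangement, with 2.42, 3.53 and 3.90 against 2.92, 3.86, 2.70, 2.26 and 2.52. Its log2 fold change was −0.59 (SE 0.29, adjusted p = 0.23), and −0.22 after the correction (adjusted p = 0.45). *Ltv1*, an export and maturation factor of the small subunit whose E-box is shown above, was at 4.53, 4.64 and 5.13 in WT and at 4.96, 4.69, 5.24, 5.24 and 5.17 in Maf1-/- livers. Maf1 KO 3, 4 and 5 exceeded every WT library, and the log2 fold change was 0.31 (SE 0.14, adjusted p = 0.21). *Tsr1* had a log2 fold change of 0.21 and *Bysl* of −0.37, or −0.12 after the correction.

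Large subunit assembly factors were centred on 0, with a median of −0.0018 and 6 of 12 above 0. *Gnl2*, a GTPase of pre-60S particles, was at 5.12, 5.22 and 5.68 in WT and at 5.58, 5.40, 5.79, 5.80 and 5.86 in Maf1-/- livers. WT 1 and WT 2 stood with the Maf1-/- libraries. It was 1.27-fold higher (log2 0.34, SE 0.13, adjusted p = 0.20), and 0.32 (SE 0.12) after the GC and length correction. *Gnl3*, encoding nucleostemin, was at 4.63, 4.89 and 5.23 against 4.94, 5.25, 5.28, 5.35 and 5.05, with 4 Maf1-/- libraries above the 6 WT libraries other than WT 2 and a log2 fold change of 0.31 (SE 0.12), or 0.18 after the correction. *Rrp1* was at 5.00, 5.73 and 5.86 against 5.46, 5.47, 5.19, 4.95 and 5.46, all 5 below the 6 WT libraries other than WT 2, which began at 5.59. Its log2 fold change was −0.34 (SE 0.16, adjusted p = 0.22), and −0.02 after the GC and length correction.

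The other 9 large subunit factors ran from −0.77 (*Rrs1*, SE 0.38) to 0.18 (*Nip7*, SE 0.11). *Bop1* and *Pes1*, which with *Wdr12* encode the PeBoW complex of 60S maturation, had log2 fold changes of −0.46, −0.04 and 0.10 for *Bop1*, *Pes1* and *Wdr12*. *Bop1* lies on chromosome 15, 98.6 kb from the end of *Maf1*; without WT 2 its log2 fold change was −0.62 (adjusted p = 0.0080), and −0.01 after the GC and length correction. *Rrp8*, which encodes a nucleolar methyltransferase of the rDNA silencing complex, was at 3.87, 4.02 and 4.18 in WT and at 3.98, 4.22, 4.03, 4.17 and 4.01 in Maf1-/- livers, with overlapping groups (log2 fold change 0.05, SE 0.09, adjusted p = 0.72). After the GC and length correction it was 0.27 (SE 0.13, adjusted p = 0.29).

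These counts depended on single libraries and on the model. Without WT 2, 3 members were called: *Taf1d* and *Nop58* higher and *Bop1* lower (6.79% of all genes were called). In that comparison 17 members were higher (17.7% of all genes) and 11 lower (25.8%) at an unadjusted p under 0.05. Every Maf1-/- library then lay above every remaining WT library for 4 members, *Taf1a*, *Taf1d*, *Nop58* and *Wdr75* (4.37% of all genes), and below for 4, *Ubtf*, *Nhp2*, *Bop1* and *Rrp1* (8.22% of all genes). With WT 2 left out after the GC and length correction no member was called (0.024% of all genes were), 15 were higher (14.7% of all genes) and 2 lower (14.2%). Without Maf1 KO 3 there were 3 members higher at an unadjusted p under 0.05 (5.59% of all genes) and 0 lower (6.52%), and without Maf1 KO 2 there were 10 lower (19.4% of all genes). With 1 residual factor in the model *Taf1c* and *Rrp12* were called lower (2 members, 8.09% of all genes), and 10 members were lower at an unadjusted p under 0.05 (24.2% of all genes). *Taf1a*, *Taf1d*, *Nop58*, *Dkc1*, *Wdr43*, *Wdr75* and *Utp6*, higher in the main fit, also had an adjusted p under 0.01 with this factor. They were not called because their log2 fold changes did not exceed 0.5. With libraries weighted by their spread 13 members were called, counting both directions (15.2% of all genes), and 14 were lower at an unadjusted p under 0.05 (29.3% of all genes). For these 2 models and without Maf1 KO 2, only the lower side is counted at that p, so the counts do not show which way the members leaned.

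**Figure D5:**
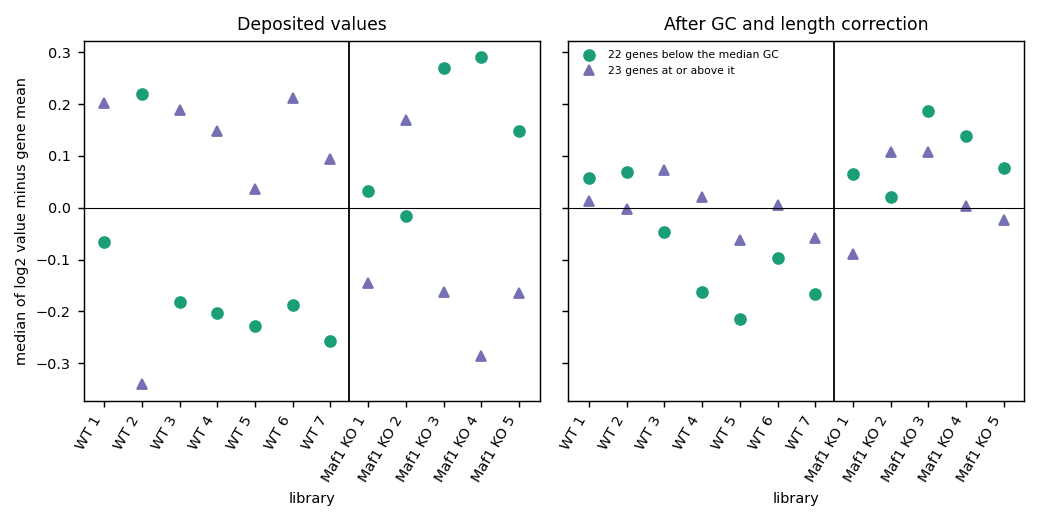
Median over genes of the log2 value minus the gene mean, in each library, for the 22 members below the members' median GC content (circles) and the 23 at or above it (triangles), in the deposited values and after the GC and length correction. On the left the circles are below the triangles in 6 WT libraries and in Maf1 KO 2, and above them in WT 2 and the other Maf1 KO libraries; on the right the distances are smaller.

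The members that hold snoRNA genes within them, as several ribosome biogenesis genes are known to, were 8 of the 46 (17.4%, beside 2.24% of all genes with an annotation): *Taf1d*, *Ncl*, *Nop56*, *Nop58*, *Dkc1*, *Wdr43*, *Tsr1* and *Gnl3*. Their median log2 fold change was 0.34, 7 were above 0 (47.1% of all genes were), and 5 were higher at an unadjusted p under 0.05 (9.9% of all genes). The 38 others had a median of 0.02, and all 280 measured genes with a snoRNA gene within their bounds one of −0.01. The 280 and the 2.24% also include measured snoRNA genes, each counted as holding itself, so they are not of host genes only. The 8 hosts were poorer in GC, with a median of 43.9% against 51.0%, and after the GC and length correction the medians were 0.20 and 0.06.

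Of 143 further genes of rRNA synthesis and ribosome assembly none was called, and 17 were higher (11.9%, beside 9.9% of all genes) and 18 lower (12.6%, beside 13.2%) at an unadjusted p under 0.05. Their median log2 fold change was −0.0030. The 5 with the smallest p were all of subunit assembly. *Wdr3*, a processome protein, was at 4.43, 4.65 and 4.84 in WT and at 4.94, 4.86, 5.08, 4.99 and 4.88 in Maf1-/- livers, without overlap (log2 fold change 0.32, SE 0.09, adjusted p = 0.19). *Noc4l*, needed for small subunit export in yeast, had a log2 difference of −0.85 (SE 0.22, adjusted p = 0.19), and *Utp14a* (0.40), *Mak16* (0.44) and *Ftsj3* (0.26) were higher at an unadjusted p under 0.05. After the GC and length correction the log2 fold changes were 0.22 for *Wdr3*, −0.52 for *Noc4l*, 0.25 for *Utp14a*, 0.30 for *Mak16* and 0.30 for *Ftsj3*.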

How the data were processed

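Total RNA of 12 livers (7 WT, 5 Maf1-/-) was sequenced, 1 mouse per library. Per the submitters' processing notes and the study's methods, reads were trimmed (cutadapt 1.8), freed of rRNA reads, aligned to the mouse genome GRCm38 (STAR 2.5.2b) and counted per gene (HTSeq 0.6.1); library sizes were scaled by TMM (edgeR 3.14.0) and limma 3.28.21 was used with factors of unwanted variation, whose number is not given in the sources used here, nor is the strand setting of the counting. The deposited values carry an RPKM name but are log2 of reads + 0.5 relative to the scaled library size, not divided by length: at a tolerance of 0.001, 100% of the values in each library came back as whole reads. Fold changes are therefore on the scale of reads + 0.5, and understate changes of low genes. The authors' columns of fold changes and p-values, and a table of pol III scores, were not used.

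The log2 values of all 13304 genes were fitted with limma 3.58.1 (R 4.3.3), genotype as the only term, without factors of unwanted variation, and p-values were adjusted (Benjamini-Hochberg) over all genes; the fit was tested on simulated data. Depth was 34709661 to 55787438 reads in listed genes. GC content, exon length and snoRNA genes inside a gene came from the GENCODE annotation of build NCBIM37, matched by gene ID for 12482 genes (93.8%). The loess correction had span 0.4 and degree 1; its form without library means was kept after both forms were computed. Members, gene lists and alternatives were chosen with earlier results of these data known. Named were all members of a role with 3 or fewer, otherwise the 3 of smallest p, and the 5 other biogenesis genes of smallest p. Further members, and *Myc*, *Mnt*, *Mxi1* and *Max*, are named with their fold change only. Tables were made with Python 3.11.15, pandas 2.3.3 and scipy 1.17.1. WT and Maf1-/- share the numbers 1 to 5, but the correlations of their deviations from the group means (0.23, −0.46, −0.18, −0.03 and −0.07) gave no pairing.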

Additional observations from a re-analysis of the deposited data

Results flagged for a closer look

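In 62 groups of libraries (31 genes in WT and Maf1-/-), the highest or lowest library lay far from the rest of its group by Dixon's criterion in 11. For a single group chance gives about 1 in 20. The 62 groups come from the same 12 libraries and are not independent, so the 11 are a description. WT 2 accounted for 8 of the 11. It was low for *Taf1c* (−0.47, others from 0.48), *Nhp2* (3.09, others from 3.99), *Rrp12* (2.42, others from 3.30), *Rrp1* (5.00, others from 5.59) and *Noc4l* (2.16, others from 2.90), and high for *Taf1d* (3.86, others to 2.99), *Nop58* (5.58, others to 4.94) and *Dkc1* (5.09, others to 4.65). Maf1 KO 2 was high for *Gar1* (2.26, others to 0.58) and *Nob1* (2.45, others to 1.28). WT 3 was high for *Polr1b* (4.82, others to 4.61). Why these libraries differ was not tested.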

How the results depend on the processing

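Over 26 alternatives (23 planned, 3 chosen after seeing the data: voom weights, the loess correction with library means kept, and that correction without WT 2), 743 of 774 values of 30 single genes kept their direction and side of the threshold. Members called went from 0 to 2 with 1 residual factor (all genes 1076, other biogenesis genes 14) and 13 with library weights (2019 and 27). The GC and length correction gave 1 gene called over all genes, 95 with 1 residual factor (1 other biogenesis gene) and 1 with library means kept. The members' median was 0.14 with median centring (all genes 0.07), 0.13 after the GC and length correction with and without the factor, and 0.13 without WT 2 as well. Members lower at an unadjusted p under 0.05 were 4 with 1 added before log2 and with a variance trend. They were 10 with 1 residual factor (24.2% of all genes) and 14 with library weights (29.3%). Members higher were 3 with library means kept (4.49% of all genes). Leaving out each library in turn gave 2 to 904 genes called (904 without WT 2), 0 to 3 members, 0 to 6 other biogenesis genes, 3 to 17 members higher, 0 to 11 lower, a median of 0.02 to 0.07, and −5.28 to −4.45 for *Maf1*. Members higher were 8 or 9 without WT 3, 4, 5, 6 or 7, 3 without Maf1 KO 3 (5.59% of all genes) and 4 without Maf1 KO 4. Members lower were 11 without WT 2 (25.8% of all genes) and 10 without Maf1 KO 2 (19.4%). They were 1 without WT 3, 6 or 7 or Maf1 KO 1 or 4, and 0 without Maf1 KO 3 (6.52%). The share over all genes moved between settings as well. Where it is not given, a count of members is not a result about the members. The cause of these shifts was not tested.

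The labels do not say whether the numbers 1 to 5 pair the libraries, and the correlations given above cannot exclude it. With the replicate number as a block, without WT 6 and WT 7, 1 gene was called over all genes and 0 members were higher or lower at an unadjusted p under 0.05; *Maf1* was −4.73 (adjusted p = 0.079). With the block after the GC and length correction the counts were 0 genes, 1 member higher and 0 lower, and *Maf1* −4.47 (adjusted p = 0.27). Only WT 1 correlated best with its own number.

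The GC and length correction turned the sign of 6 members, among them *Ubtf* (−0.24 to 0.21) and *Rrp9* (−0.27 to 0.17). Among the genes described in full, signs turned for *Polr1a* with library weights (−0.036) and without WT 2, Maf1 KO 1 or Maf1 KO 2 (−0.061 to 0.094 over all libraries left out), *Nop56* with library weights (−0.044) and without Maf1 KO 2 (−0.027 to 0.15), *Npm1* after the GC and length correction (−0.014 with and without the factor, −0.042 with the block, −0.094 with library means kept, −0.0185 without WT 2), and *Nolc1* with the block after the correction (0.0031). The 18 to 4990 reads per member limit *Taf1c*, *Fbl*, *Gar1* and *Nob1* most. Standard errors were 0.08 to 0.38, with a median of 0.13.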

Other observations

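The table also listed 16 small nucleolar, Cajal body and RNase MRP RNAs, chosen after their values were seen. Of these 15 had a log2 fold change below 0, with a median of −0.66, or −0.93 without WT 2. Once corrected for GC content and exon length, 10 of the 16 were below 0 and the median was −0.11. In the deposited values 2 were lower at an unadjusted p under 0.05 (13.2% of all genes were). *Snord118*, encoding the U8 RNA needed for 5.8S and 28S processing, had WT values of −0.65, 0.28 and 1.36 (lowest, median and highest) and Maf1-/- values of −0.79, 0.72, −1.83, −1.34 and −2.02. *Snora78* was at −2.45, 1.21 and 2.20 against −1.48, 0.10, −2.52, −2.11 and −1.72, with WT 2 at the WT minimum. The log2 fold changes were −1.36 (SE 0.47) for *Snord118* and −2.16 (SE 0.71) for *Snora78*. After the GC and length correction these 2 remained lower, at −1.12 (SE 0.33, adjusted p = 0.21) and −1.31 (SE 0.32, adjusted p = 0.21). None of the 16 passed the thresholds; the smallest adjusted p was 0.19, and several held few reads (from 6 per library). Such short RNAs are recovered poorly by this kind of library, and the share of this in the differences was not tested.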
